A study of Homo sapiens with 9 samples.

Results

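Native miR-17 was compared with a negative control oligonucleotide in RKO cells, a human colorectal cancer line, on 1 microarray each. These are the 2 arrays titled for the native type of miR-17 and for the negative control, out of 9 arrays in the series. All 9 arrays come from RKO cells in which DICER exon 5 was disrupted, so the control cells carry the disruption too, and RNA was taken 48 h after the double-stranded oligonucleotides were introduced by lipofection, per the labels. The other 3 native arrays, of miR-200c, miR-21 and let7a, show what is shared among native oligonucleotides, and 4 further arrays carried oligonucleotides labelled as methylated. No array has a replicate, so a difference between single arrays has no replicate check and no p-value, and all values are on a log2 scale, where a difference of 1 stands for 2-fold. Where a gene lay at a value, the value is its log2 intensity on an array. Where it was at a value, the value is its log2 difference from the control array.

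miRNAs guide Argonaute proteins to messenger RNAs, mostly through pairing of the seed, a short stretch near the 5′ end, with the 3′ untranslated region, and the bound messages are destabilised or translated less. DICER cuts the precursor hairpins of most miRNAs. miR-17 comes from a cluster of miRNAs made from 1 transcript, which MYC activates and which is amplified or abundant in many tumours, colorectal ones included. Its reported targets include the cyclin-dependent kinase inhibitor CDKN1A, retinoblastoma family members, E2F factors and receptors and SMADs of TGF-beta signalling.

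The mature sequences are shown because the 4 native oligonucleotides differ in their seeds, given in capitals (bases 2 to 8). They are RefSeq entries of GRCh38.p14. The labels do not name the strand of the oligonucleotides, so both arms of miR-17 are given. Written in DNA letters, the site complementary to the seed of miR-17-5p is GCACTTT.
hsa-miR-17-5p: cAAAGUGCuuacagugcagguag
hsa-miR-17-3p: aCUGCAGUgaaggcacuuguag
hsa-miR-200c-3p: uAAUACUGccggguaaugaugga
hsa-miR-21-5p: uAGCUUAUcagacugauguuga
hsa-let-7a-5p: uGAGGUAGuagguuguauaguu

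The gene MIR17 lies on the plus strand of chromosome 13, with the 5p arm at chr13:91350618-91350640 and the 3p arm at chr13:91350655-91350676. Of 2370 mature names in the RefSeq table, 8 share the seed of miR-17-5p, and 3 of the other family members are shown because many targets are reported for the family as a whole.
hsa-miR-20a-5p: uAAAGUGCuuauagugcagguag
hsa-miR-93-5p: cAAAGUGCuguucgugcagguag
hsa-miR-106b-5p: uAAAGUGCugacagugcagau

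On the miR-17 native array 18632 of 24460 probes (76.2%) lay above the blank spots, against 17115 (70.0%) on the control array. The miR-17 native array had the lowest blank mean (31.4) and the lowest median intensity of detected probes (98.2) of the 9 arrays, and the control array had the highest of both, at 46.8 and 142. Their part in the results was not tested. After filtering and quantile normalization 16072 features were compared, 13391 of them with a gene symbol. Of 9 colorectal epithelium markers on the array 7 were detected on both arrays, CDX2, EPCAM and KRT18 among them, while CEACAM5 and KRT19 were not. Of 6 blood and immune markers on the array 4 were detected on both arrays (CD3E, CD14, LYZ and CD68), while PTPRC and ITGAM were detected on neither. CD68 was bright, at 13.0 with miR-17 and 13.1 in the control. CD3E was dim on both arrays (5.99 with miR-17 and 5.94 in the control), and so was LYZ (6.12 and 6.16). KRT20, among the 7 detected colorectal markers, was dim as well (6.22 and 6.13). For such genes detection means only a signal just above the blank spots. Of 7 fibroblast and endothelial markers 4 were detected on the miR-17 native array and 3 on the control array. The fibroblast genes COL1A1, COL3A1 and LUM were detected on neither. DICER1 lay at 6.74 on the miR-17 native array and 6.71 on the control array, but where its probe lies relative to the disrupted exon was not analysed, and the value is no check of the disruption.

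The labels of 2 other arrays bear on how far miR-17 values can be set beside methylated ones. Genes were centred over the 4 native arrays and, separately, over the 4 methylated ones. Across genes, the miR-17 native array then had a Pearson's r of 0.69 with the array labelled let7a methylated and of -0.16 with the one labelled miR-17 methylated, as a description, since genes are not independent replicates. The let7a native array had an r of 0.56 with the array labelled miR-17 methylated and of -0.22 with the one labelled let7a methylated. Each of these 2 methylated arrays thus resembled the native array of the other's miRNA more than that of its own, and whether the labels were exchanged was not tested. The labels were kept. Both arrays enter the normalization over 9 arrays and the filter on dim probes, but neither enters the differences between native arrays and the control. Values of the array labelled let7a methylated are given as values only.

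On the miR-17 native array 87 features (0.541%) lay at least 1 below the control and 18 (0.112%) at least 1 above it. At a difference of 0.5 the counts were 445 lower (2.77%) and 267 higher (1.66%). In the authors' deposited table, whose columns were scaled in another way, the median of all features was 0.26 higher on the miR-17 native array. There 138 lay lower and 198 higher by 1, so that 41.1% of the genes past the fold were lower, against 82.9% here. Relative to that median the split was 261 lower and 58 higher, or 81.8% lower. The other native arrays, set against the same control array, had 109 lower (0.678%) and 27 higher features (0.168%) with miR-200c, 9 (0.056%) and 12 (0.0747%) with miR-21, and 37 (0.23%) and 13 (0.0809%) with let7a. For comparison, methylated minus native differed by at least 1 in 13 features, 3 lower and 10 higher, for miR-200c, and in 16, 11 lower and 5 higher, for miR-21. The SD of those differences over features was 0.14, and that of miR-17 native minus control was 0.23.

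**Figure D1:**
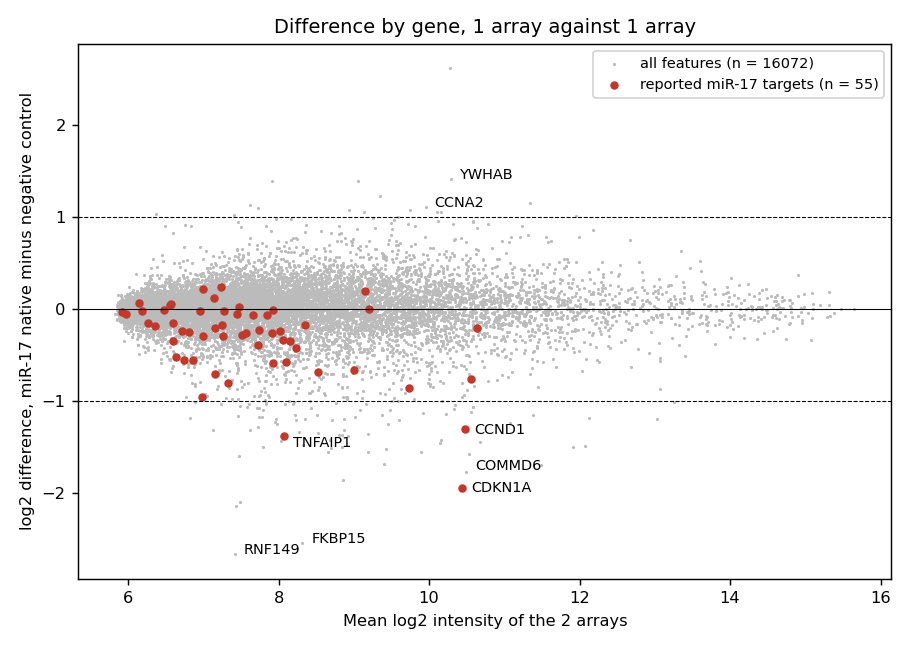
Each point is a feature, with its mean log2 intensity on the 2 arrays on the x axis and the log2 difference, miR-17 native minus negative control, on the y axis. Red points are the 55 measured genes on the list of reported miR-17 targets and dashed lines mark a difference of 1 in each direction. The largest differences are mostly below 0, and CDKN1A, TNFAIP1 and CCND1 are the targets below -1.

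The list of reported miR-17 targets holds 61 genes, of which 55 had a probe that passed the filter, and all 55 were detected on both arrays. The rest are not analysed here. The list was chosen with earlier results of these data known, so the counts below are a description and not an independent test. Of the 55, 46 (83.6%) lay below the control and 9 above it, where 45.4% of all features lay below. The other native arrays had 34 (miR-200c), 34 (miR-21) and 31 (let7a) of the 55 below the same control, where 44.3%, 48.3% and 49.2% of all features lay below it. With miR-17 the list had 15 members at or below -0.5 (2.77% of all features) and 0 at or above 0.5. At or below -0.5 were 8 members with miR-200c (3.85% of all features), 3 with miR-21 (0.765%) and 2 with let7a (1.61%). The median of the list was -0.23 with miR-17, and it was -0.06 with miR-200c, -0.03 with miR-21 and -0.03 with let7a, against the same control. The median of all features was 0.01 with miR-17. The miR-17 native array was the lowest of 5 arrays, the 4 native ones and the control, for 30 of the 55, where it was the lowest for 20.1% of all features, and it was the highest for 2, against 24.9%. The list's median was -0.22 where the label reads let7a methylated and -0.02 where it reads miR-17 methylated, the 2 labels in doubt.

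Among the cell cycle targets, CDKN1A, which encodes the p21 inhibitor of cyclin-dependent kinases, was furthest below the control. Its log2 intensity was 9.47 on the miR-17 native array, against 11.29 with miR-200c, 11.53 with miR-21, 11.07 with let7a and 11.41 in the control, a difference of -1.94 from the control. It was 9.81 on the array labelled let7a methylated. The value with miR-17 lay apart from the other native values and the control, which spanned less than 0.5. CCND1, cyclin D1 of the G1 phase, lay at 9.83 with miR-17, against 10.44 with miR-200c, 11.55 with miR-21, 10.86 with let7a and 11.13 in the control. Its difference from the control was -1.30 with miR-17 and -0.69 with miR-200c, so a lower value was not limited to miR-17. The transcription factor E2F1 differed by -0.02 from the control (0.01 under median scaling and 0.19 in the authors' deposited table). Among the retinoblastoma family, RB1 was at -0.17 and RBL2 at -0.23, with another RBL2 probe at -0.44, whereas RBL1 was at 0.24 and the activator E2F3 at 0.22. The list of 14 cell cycle targets had a median of -0.19, with 11 lower (45.4% of all features).

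The TGF-beta and BMP targets lay close to the control. Their median was -0.06 over 8 measured members, 7 of them lower (45.4% of all features). It was 0.03 in the authors' deposited table and -0.21 with subtraction of the blank mean. The receptor TGFBR2 was at 0.02, the common mediator SMAD4 at -0.01 and the inhibitory SMAD7 at -0.02. SMAD7 was dim on both arrays (6.18 with miR-17 and 6.20 in the control), where a fold is hard to see. CRIM1, a membrane protein that binds BMPs, was at -0.58, but it was at -1.05 with miR-200c, -0.52 with miR-21 and -0.90 with let7a. On the same scale it thus lay above the mean of the other native arrays.

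Of 6 measured survival and PI3K targets, 3 were at least 0.5 below the control (2.77% of all features). PHLPP2, a phosphatase that dephosphorylates AKT, had a log2 intensity of 6.80 with miR-17, against 7.55 with miR-200c, 7.35 with miR-21, 7.29 with let7a and 7.51 in the control. The death receptor FAS was at -0.66 with miR-17 and lay below the control on every other native array, at -0.60 with miR-200c, -0.57 with miR-21 and -1.02 with let7a. The stress kinase MAP3K5 was at -0.55. BCL2L11, which encodes the pro-apoptotic BIM, was dim on both arrays (6.18 with miR-17 and 6.12 in the control), and PIK3R1, the regulatory subunit of PI3 kinase, was at 0.12.

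All 8 measured lipid, autophagy and trafficking targets lay below the control, where 45.4% of all features did, with a median of -0.26. Against the same control, 7 of the 8 lay lower with miR-200c, 5 with miR-21 and 3 with let7a. FYCO1, at -0.03, was dim on both arrays (5.90 with miR-17 and 5.93 in the control). TXNIP, which binds thioredoxin and limits glucose uptake, lay at 6.92 with miR-17, against 7.47 with miR-200c, 8.25 with miR-21, 7.86 with let7a and 7.72 in the control. The amyloid precursor protein gene APP was at -0.85, and at -0.94 with miR-200c. The autophagy receptor gene SQSTM1 was at -0.76, and at -0.67 with miR-200c, so these targets were low on both arrays. ATG7 was at -0.26, the autophagy kinase ULK1 at -0.25, and ATG16L1 at -0.15.

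Among 19 signalling and transcription targets 16 were lower (45.4% of all features), with a median of -0.34. TNFAIP1, an adaptor of a ubiquitin ligase, lay at 7.38 with miR-17, against 8.83 with miR-200c, 8.85 with miR-21, 8.37 with let7a and 8.75 in the control. LIMK1, a kinase that inactivates cofilin, lay at 6.51 with miR-17, against 7.27 with miR-200c, 7.41 with miR-21, 7.39 with let7a and 7.46 in the control. For both genes the miR-17 native array was the lowest of the 5, by 0.99 and 0.76. HIF1A, the oxygen-regulated transcription factor, was at -0.68, but another of its probes was at -0.13. PKD2 was at -0.55 and the tissue factor gene F3 at -0.52, with PKD2 at -0.80 on the miR-200c native array. STAT3 was at -0.29, JAK1 at -0.34, and the kinase MAPK9 at 0.20.

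**Figure D2:**
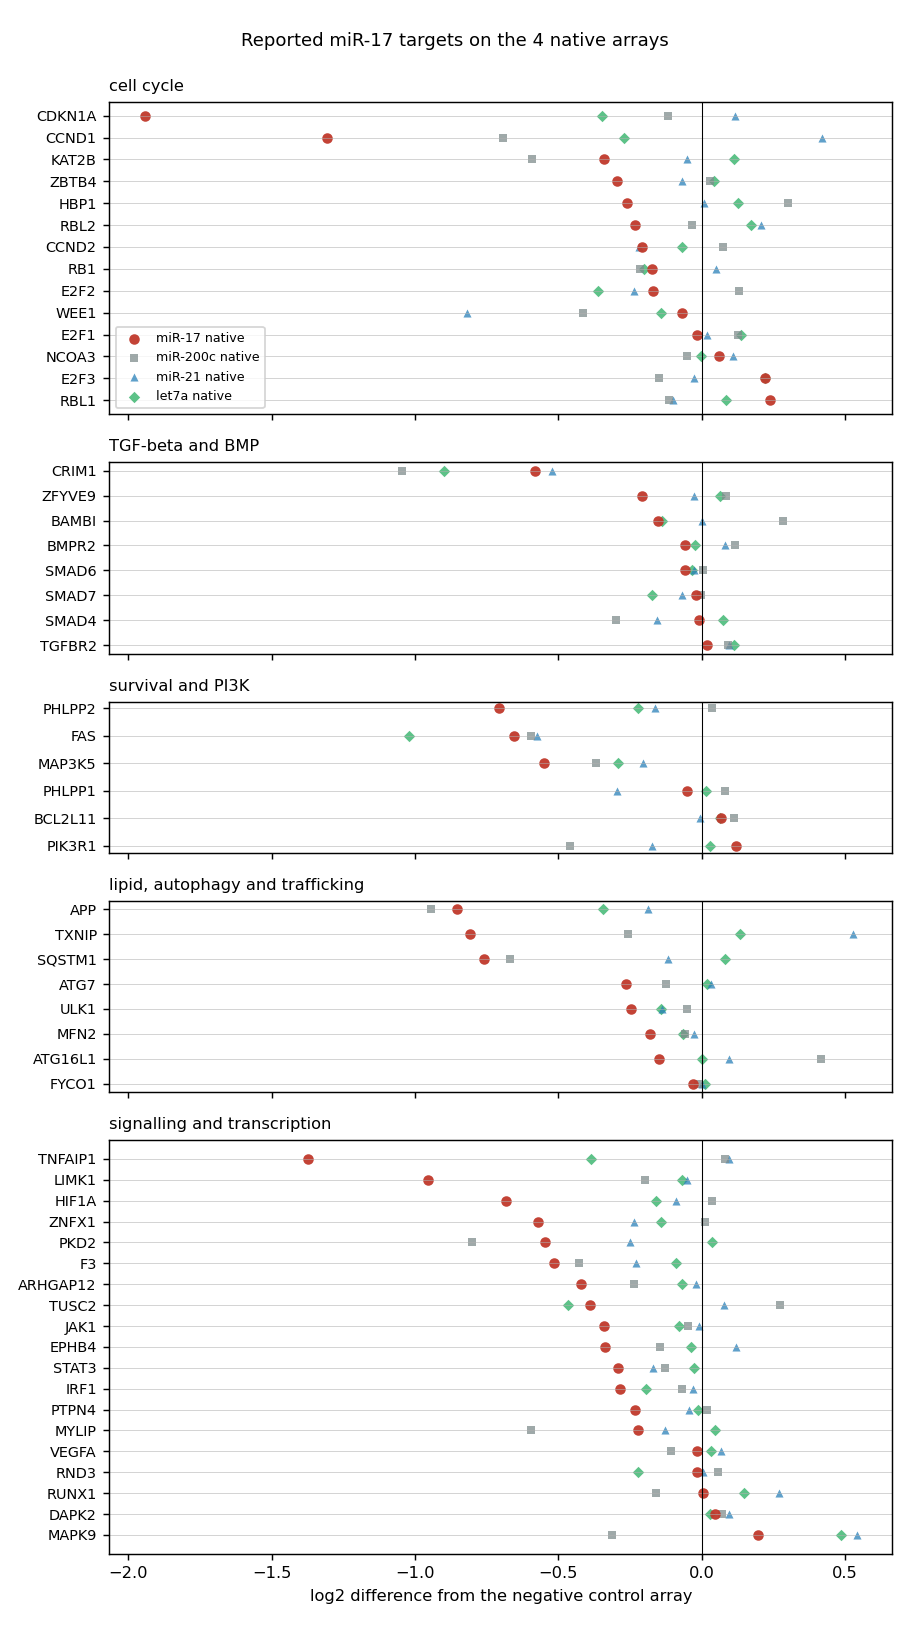
Log2 difference from the negative control of the 55 measured reported miR-17 targets, grouped by role, on the miR-17 native array (red circles) and on the other 3 native arrays, which share the control. CDKN1A, TNFAIP1 and LIMK1 lie far below the other native arrays, whereas APP, SQSTM1 and CRIM1 were about as low or lower with miR-200c.

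The targets reported for the other 3 miRNAs were read in the same way. The let-7a list had a median of -0.10 with miR-17 and -0.30 with let7a, the miR-21 list -0.02 with miR-17 and -0.17 with miR-21, and the miR-200c list -0.03 with miR-17 and -0.35 with miR-200c. In the authors' deposited table the medians with miR-17 were 0.14, 0.20 and 0.15. CFL2, an actin-severing cofilin from the miR-200c list, was nevertheless at -1.42 with miR-17, and at -2.21 with miR-200c.

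To see what set miR-17 apart, features were sought whose miR-17 value lay beyond the control and beyond every other native array. By at least 1, 20 features were lower (0.124%) and 1 was higher (0.00622%), and by at least 0.5, 153 were lower (0.952%) and 24 higher (0.149%). The same count at 1 gave 44 lower and 5 higher for miR-200c, 1 and 0 for miR-21, 5 and 0 for let7a, and 1 and 1 for the control array itself. Of the 20 lower features 17 had a gene symbol, and those outside the naming rule were chosen after their values were seen.

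COMMD6, a small member of the COMM domain family, had the widest gap. It lay at 9.61 with miR-17, against 11.86 with miR-200c, 11.44 with miR-21, 11.69 with let7a and 11.38 in the control, and another COMMD6 probe was also lower than the control, by -1.54. MRPL24, a protein of the mitochondrial ribosome, lay at 9.12 with miR-17, against 10.81 with miR-200c, 10.75 with miR-21, 10.63 with let7a and 10.67 in the control. RHOC, a small GTPase gene, lay at 9.95 with miR-17, against 11.34, 11.47 and 11.44 with miR-200c, miR-21 and let7a and 11.39 in the control. In each of these genes the other 4 values lay close together, and the miR-17 value was more than 1 below all of them.

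Of the other named genes among the 17, ATP6V0E1, a subunit of the proton pump that acidifies lysosomes, lay at 11.16 with miR-17 and 12.66 in the control, and LAPTM4A, a lysosomal membrane protein, was 1.05 below the nearest of the other 4 values. PFKP, a phosphofructokinase of glycolysis, lay at 8.83 with miR-17 and 10.07 in the control. ANGPTL4, a secreted inhibitor of lipoprotein lipase, was 1.04 below the nearest value, and the sugar kinase NAGK and the paraoxonase PON2 were 1.21 below it. RNH1, which inhibits ribonucleases, lay at 8.13 with miR-17 and 9.49 in the control. NUBP1, which helps assemble iron-sulphur clusters, lay at 7.04 with miR-17 and 8.54 in the control. The remaining named genes were HN1, GINM1, MKRN1, CDC37L1 and AHI1, with gaps of 1.07 to 1.16. The target TNFAIP1, with a gap of 0.99, lay just outside the threshold.

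**Figure D3:**
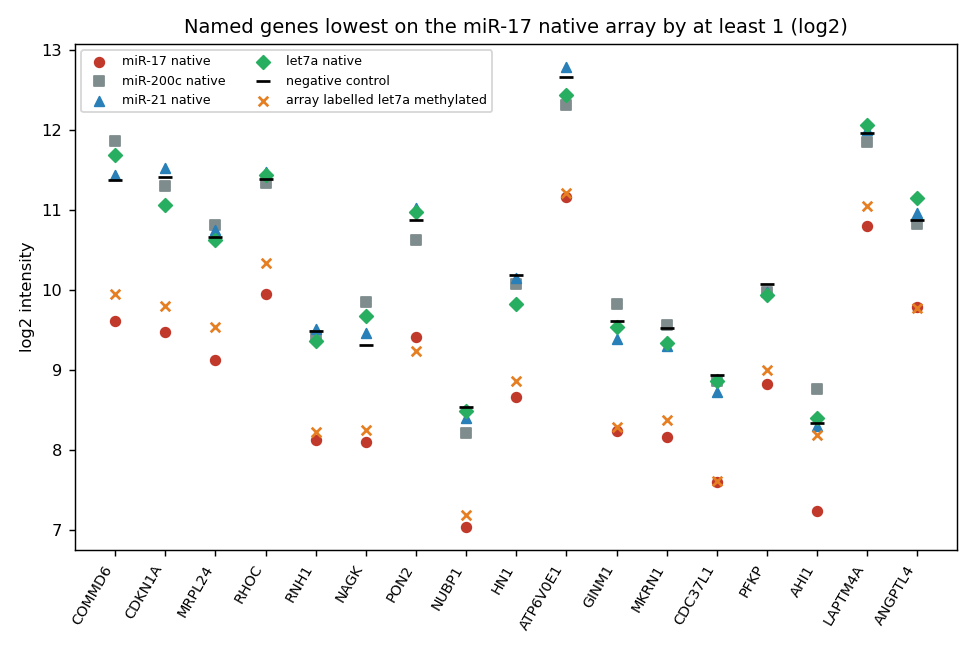
Log2 intensity of the 17 named genes for which the miR-17 native array (red) lay at least 1 below the control (black bars) and below each of the other native arrays. Orange crosses are the array labelled let7a methylated, which was not used to choose the genes and lies near the red points for most of them, with AHI1 as an exception.

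At gaps of 0.5 or 1, fewer features were higher with miR-17 than on all the other 4 arrays, although at any gap it was the highest for 24.9% of features and the lowest for 20.1%. The cell cycle gene CCNA2, cyclin A2 of the S and G2 phases, lay at 10.51 with miR-17, against 9.19 with miR-200c, 9.55 with miR-21, 9.64 with let7a and 9.40 in the control. TK1, the thymidine kinase that is made in S phase, lay at 10.86 with miR-17, against 10.08, 9.93 and 10.03 with miR-200c, miR-21 and let7a and 10.13 in the control. Both genes were highest on the miR-17 native array, and on the array labelled let7a methylated they lay at 10.40 and 10.76. TBL2 lay at 6.88 with miR-17 but was not well above background in the control, miR-200c and miR-21 native arrays, so no fold is given. An unnamed probe, not well above background on the miR-200c and miR-21 native arrays, was the 1 feature higher by at least 1.

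The miR-17 native array was then tested against the other 3 native arrays with limma, which used no control array and assumed that the single miR-17 array varied like the others. Of 16072 features 0 passed a Benjamini-Hochberg adjusted p of 0.05, and 977 (6.08%) had an unadjusted p under 0.05, where 803.6 are expected by chance. The smallest adjusted p was 0.15, at the unnamed probe that was dim on 2 of these 3 arrays, and an exact permutation over 4 arrays cannot go below 0.25. CDKN1A differed by -1.82 from the mean of the other native arrays (SE 0.23, n = 1 against 3, limma adjusted p = 0.371), and COMMD6 differed by -2.05 (SE 0.22, limma adjusted p = 0.371). Further genes at the same adjusted p, by their difference from the other native arrays, were MRPL24 at -1.61, RHOC at -1.47, NUBP1 at -1.33, RNH1 at -1.30 and GNPDA2, an enzyme of hexosamine breakdown, at -1.29. The named genes on the higher side were dim or differed by less than 0.5, apart from the arginase ARG2, which differed by 0.87.

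A limma model with the miRNA and the form as terms over the 8 miRNA arrays, which uses both arrays with labels in doubt, also called 0 features, with 982 at an unadjusted p under 0.05. The same model over 6 arrays, which leaves out those labelled as methylated let7a and miR-17, called 613 lower (3.81%) and 428 higher (2.66%). It has 1 residual degree of freedom, its spread comes from the miR-200c and miR-21 pairs alone, and its differences are those of the native arrays. It also called genes that another miRNA moved away from the control, such as RGS2, which was at 2.67 with miR-200c and -0.63 with miR-17, so no target is called by it here.

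The 3 genes furthest below the control were also low with let7a. RNF149, a membrane ubiquitin ligase, lay at 6.08 with miR-17, against 9.14 with miR-200c, 8.03 with miR-21, 6.74 with let7a and 8.75 in the control, but another, dim RNF149 probe differed by -0.10. FKBP15, a protein linked to endosomes, was at -2.54 with miR-17 and -2.44 with let7a. EIF2AK2, the double-stranded RNA-activated kinase PKR, was at -2.14 with miR-17 and -2.00 with let7a. The small GTPase gene RHOA was at -1.69 with miR-17 and -1.57 with let7a, and the focal adhesion gene ZYX at -1.59 and -1.83. These 5 genes were thus low on both the miR-17 native and the let7a native arrays. On the miR-21 native array they were below the control by less. There RNF149 was at -0.72, FKBP15 at -0.74, EIF2AK2 at -0.41, RHOA at -0.97 and ZYX at -0.77. With miR-200c, ZYX was at -0.40, RHOA at -0.36 and FKBP15 at -0.18, against 0.19 for EIF2AK2 and 0.39 for RNF149. All 5 genes were also below the control on the miR-21 methylated array. There the differences were -1.56 for RNF149, -1.52 for FKBP15, -1.0 for EIF2AK2, -1.76 for RHOA and -1.49 for ZYX. On the array labelled let7a methylated, RNF149 was at -1.06, RHOA at -0.29, EIF2AK2 at -0.09, FKBP15 at -0.04 and ZYX at 0.22.

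BIRC3, an inhibitor of apoptosis and NF-kappaB target, lay below the control on every native array, by -1.86 with miR-17, -1.67 with miR-200c, -1.15 with miR-21 and -1.86 with let7a. PUDP, a pseudouridine phosphatase, was at -1.56 with miR-17 and -1.58 with let7a, against 0.05 with miR-200c. MXRA7 was at -2.10 with miR-17 and -2.42 with miR-200c. On the miR-200c methylated array, however, MXRA7 was at 0.02, and another of its probes was at 0.25 with miR-17. M6PR, the mannose 6-phosphate receptor that carries enzymes to lysosomes, lay at 8.57 with miR-17, against 9.49 with miR-200c, 10.19 with miR-21, 10.08 with let7a and 10.25 in the control. FRG1 was at -1.55 with miR-17, against -0.58 with miR-21, -0.48 with let7a and 0.38 with miR-200c. Over the 87 lower features, 1 also lay at least 1 below the control on all 3 other native arrays, 21 on 1 or 2 of them and 65 on none. Of all features only 0.678% lay that far below the same control with miR-200c, 0.056% with miR-21 and 0.23% with let7a.

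Most of the highest genes were also higher on the other native arrays. YWHAB, a 14-3-3 protein, was at 1.42 with miR-17, 0.63 with miR-200c, 1.35 with miR-21 and 1.31 with let7a. POP5, a subunit of RNase P, was at 1.23 with miR-17, 1.72 with miR-200c, 1.33 with miR-21 and 1.38 with let7a. The RNA-binding SNU13, the kinase-assembly factor MNAT1, the vesicle fusion ATPase NSF and the translation termination factor ETF1 lay between 1.08 and 1.15 with miR-17. They were higher than the control on all 4 native arrays, which share that control. CA2, a carbonic anhydrase, was at 1.39 with miR-17 and 0.21 to 0.82 on the other native arrays. RPA1, which binds single-stranded DNA, was at 1.05 with miR-17, 0.49 with miR-200c, 0.48 with miR-21 and 0.08 with let7a. HOXA9 was at 1.06 with miR-17, against -0.29 with let7a. MRPS35, NARS2, TPD52L2, HMGN1 and COL9A3 completed the 15 highest, at 1.0 to 1.39.

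**Figure D4:**
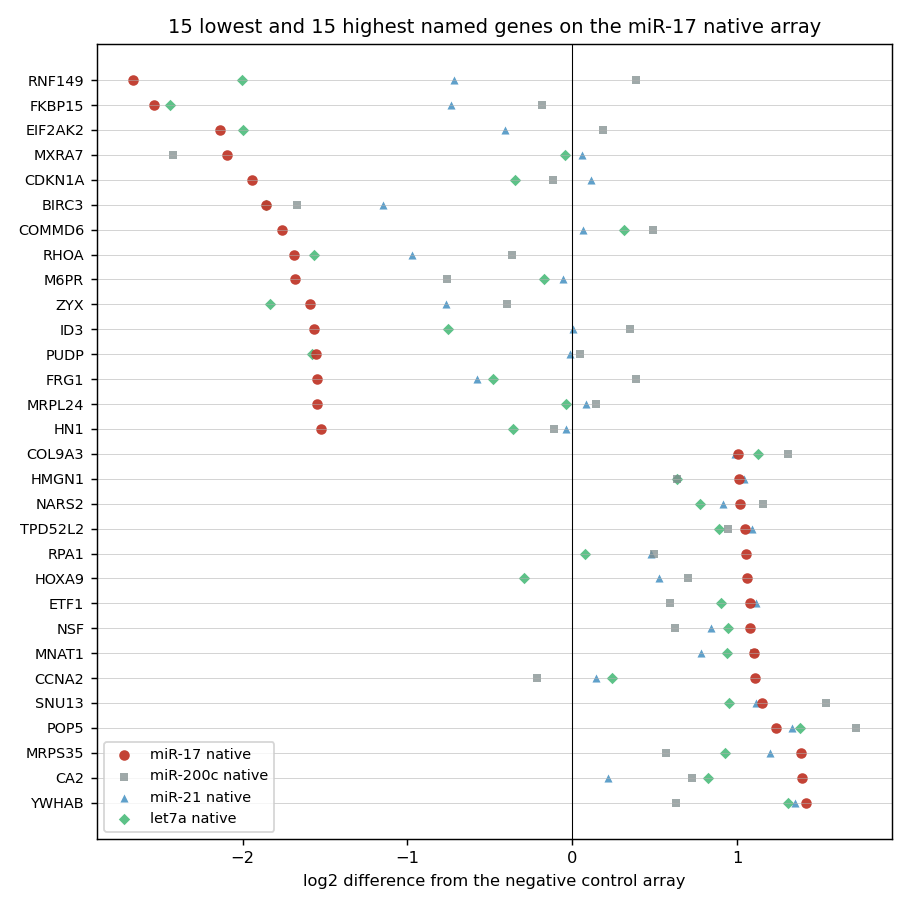
Log2 difference from the negative control of the 15 lowest and 15 highest named genes on the miR-17 native array (red circles), with the same genes on the miR-200c, miR-21 and let7a native arrays. CDKN1A, COMMD6, MRPL24, HN1 and CCNA2 stand apart from the other native arrays, whereas BIRC3 and most of the higher genes lie on the same side in all 4.

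Genes of DNA replication lay above the control together. Of 39 measured S phase genes 35 lay above the control, where 54.5% of all features did, and 4 below it, with a median of 0.28, and the medians of the list were 0.01 with miR-200c, -0.22 with miR-21 and -0.01 with let7a. The miR-17 native array was the highest of the 5 for 26 of the 39, where it was highest for 24.9% of all features. The differences were small, with 3 members at or above 0.5 (TYMS, which makes thymidylate, at 0.75, TK1 at 0.73 and the clamp loader subunit RFC4 at 0.57). PCNA, the sliding clamp, was at 0.41, the licensing factor CDC6 at 0.42 and UHRF1, which maintains DNA methylation, at 0.41. UHRF1 was at -1.16 with miR-200c. The 4 lower members were CLSPN, a checkpoint mediator, at -0.95, with another probe at -0.34, the G1/S cyclin CCNE1 at -0.53, the ribonucleotide reductase subunit RRM2 at -0.33 and CCNE2 at -0.18. By the test against the other native arrays 0 passed.

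Genes of mitosis were higher as well, but not with miR-17 alone. Of 38 measured members 32 lay above the control, where 54.5% of all features did, with a median of 0.22 with miR-17 and 0.21 with let7a, against -0.17 with miR-200c and -0.24 with miR-21. The spindle factor TPX2 was at 0.50 with miR-17 and 0.51 with let7a, and the checkpoint protein MAD2L1 at 0.49 and 0.40. The kinesin KIF11 was at 0.48 with miR-17 and 0.54 with let7a. KIF23, a kinesin of cytokinesis, was at -0.46 with miR-17 and 0.20 with let7a, and the kinase AURKB at -0.26. Relative to the median of all features, the S phase and mitosis lists were at 0.26 and 0.21 in the authors' deposited table and at 0.16 and 0.13 under median scaling.

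The p53 list, which holds CDKN1A, was mixed. Its median was 0.10 (-0.01 with no filter on dim probes), with 10 members lower (45.4% of all features) and 11 higher. FAS and the death receptor TNFRSF10B, at -0.56, were low beside CDKN1A, whereas the DNA damage sensor DDB2 was at 0.70, the BH3 protein PMAIP1 at 0.57 and PHLDA3 at 0.51.

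Of the TGF-beta response list, the inhibitors of differentiation stood out. ID3 lay at 9.75 with miR-17, against 11.67 with miR-200c, 11.33 with miR-21, 10.57 with let7a and 11.32 in the control. ID1 lay at 9.0 with miR-17, against 10.31 with miR-200c, 10.03 with miR-21, 9.55 with let7a and 10.21 in the control. Both were lowest with miR-17 and next lowest with let7a. KLF10 was at -0.86, and at -0.84 with miR-200c, CCN2, a matricellular protein, was at 0.33, the ubiquitin ligase SMURF2 at 0.23 and TGFB1 at 0.06. The median of the list was -0.04, and 0.04 under median scaling and 0.11 in the authors' deposited table.

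Among immediate early and feedback genes, 13 of 23 were lower, where 45.4% of all features were. The zinc finger factor EGR1 lay at 7.34 with miR-17, against 8.95 with miR-200c, 8.29 with miR-21, 8.37 with let7a and 8.57 in the control. ERRFI1, a feedback inhibitor of the EGF receptor, was at -0.90, and lower with let7a, at -1.22. RGS2, a regulator of G protein signalling, was at -0.63 with miR-17, against 2.67 with miR-200c. The highest members were ETV4 at 0.32, JUN at 0.27 and ETV5 at 0.23, and the list's median was -0.10, or 0.05 in the authors' deposited table.

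The autophagy and lysosome list had a median of -0.12, with 20 of 29 members lower (45.4% of all features), and medians of -0.01 with miR-200c, 0.03 with miR-21 and 0.00 with let7a. The miR-17 native array was the lowest of the 5 for 17 of the 29, where it was the lowest for 20.1% of all features. M6PR at -1.68 was the lowest member, followed by SQSTM1 and by the lipid transfer protein gene ATG2A at -0.50, while the cathepsin CTSB was at 0.29, WIPI1 at 0.18 and GABARAPL2 at 0.17. The list shares SQSTM1 and other members with the targets.

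NF-kappaB targets had a median below the control on all native arrays. With miR-17 15 of 18 were lower (45.4% of all features), with a median of -0.21, and the medians were -0.17 with miR-200c, -0.14 with miR-21 and -0.18 with let7a, against the same control. The chemokine CXCL8 was at -1.01 with miR-17 and -0.83 with miR-200c. IER3 was at -0.86 with miR-17, against 0.52 with miR-200c, and another, dim probe was at 0.05. NFKB1 at 0.27 was the highest member, followed by CFLAR and NFKB2.

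Cholesterol synthesis had 12 of 17 members higher (54.5% of all features), with a median of 0.10. MSMO1, a sterol oxidase, was at -1.12 with miR-17 and -1.35 with miR-200c. The synthase HMGCS1 was at -0.64 and the mevalonate kinase MVK at -0.53. INSIG1, which holds back sterol synthesis, was at 0.69 with miR-17, against -1.36 with miR-200c, the isomerase IDI1 was at 0.45 and the sterol carrier STARD4 at 0.45. The list thus had members past 0.5 in both directions.

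The interferon list had a median of -0.04 (0.02 under median scaling and 0.06 in the authors' deposited table), with 15 of 25 lower (45.4% of all features). ISG20, an interferon-induced exonuclease, was at -0.62 with miR-17, against 0.95 with let7a, 0.27 with miR-200c and 0.22 with miR-21. IFI6 was at 0.61 with miR-17 and 0.52 to 1.22 on the other native arrays. In the ER stress and ATF4 list the chaperone gene DNAJB9 was at -0.93 and CEBPB at -0.91, around a median of 0.04. In the hypoxia and glycolysis list, around a median of 0.12, PFKFB3 was at -0.70, with another, dim probe at -0.12. The aldolase ALDOA was at -0.53, against LDHA at 0.41.

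Of the small RNA machinery, AGO2, the slicing Argonaute, was below the control on every native array, at -0.78 with miR-17, -0.49 with miR-200c, -0.43 with miR-21 and -0.81 with let7a. AGO1 was at -0.32 and AGO3 at -0.18 with miR-17, while the microprocessor subunit DGCR8 was at 0.45, with another probe at 0.002. Of 22 genes of the RNA methylation machinery 17 were higher (54.5% of all features), with a median of 0.10 and none past 0.5 in either direction. Among mesenchymal markers CAV1 was at -1.15 with miR-17, with another, dim probe at 0.04, and at -1.13 with miR-200c. CALD1 was at -0.91 with miR-17 and -1.80 with miR-200c, and ZEB1, the best known target of miR-200c, was at 0.00 with miR-17 and -1.70 with miR-200c. None of the 17 epithelial markers was past 0.5. Among YAP targets NT5E was at -0.79 and CCN1 at -0.43. Of 60 ribosomal protein genes 1 was past 0.5 (RPL15 at 0.51, with another probe at 0.12), around a median of -0.05, or 0.08 in the authors' deposited table.

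**Figure D5:**
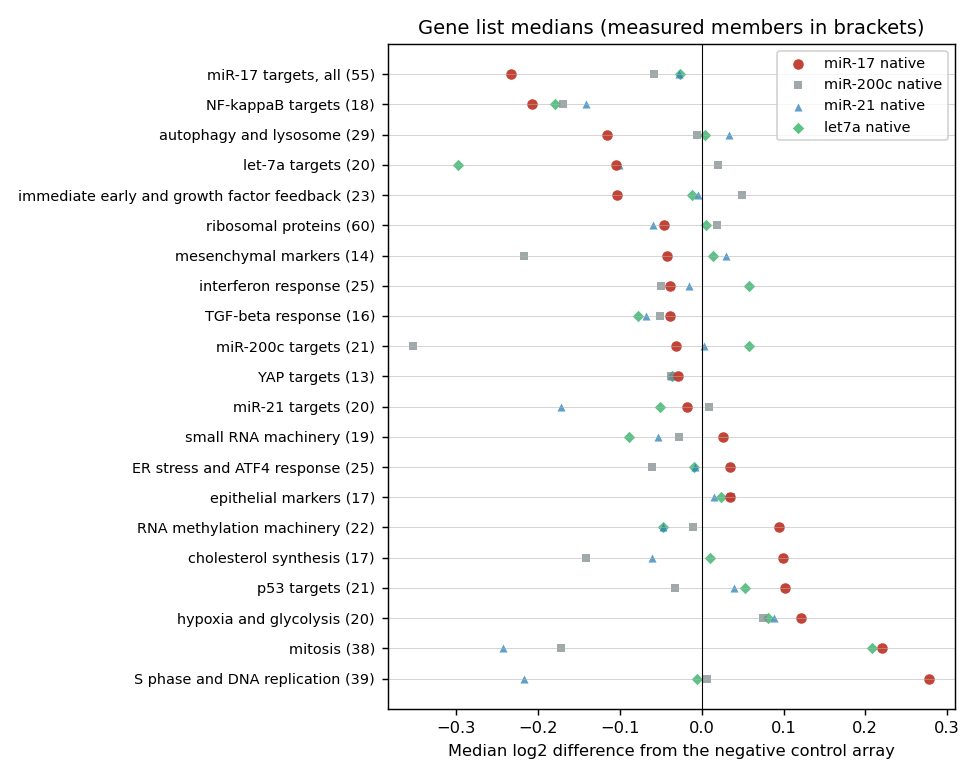
Median log2 difference from the negative control of each gene list, with the number of measured members in brackets, on the miR-17 native array (red circles) and on the other 3 native arrays, which share the control. The reported miR-17 targets lie lowest and the S phase genes highest on the miR-17 native array. The targets of each of the other 3 miRNAs lie lower on the array of that miRNA than on the other native arrays.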

How the data were processed

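The authors' scanner files hold a raw median intensity at 635 nm for each of 27456 spots, and no background was taken off, per the file headers. The authors' deposited table of processed values, also an intensity, served as an alternative, and its making is not described in the sources used here. Control spots were left out, as were 9 probes marked as outliers. Intensities were corrected with limma normexp (offset 50, limma 3.58.1, R 4.3.3), quantile normalized across all 9 arrays, then expressed as log2. The offset draws the differences of dim genes towards 0. Probes above the mean plus 2 SD of 2680 blank spots on at least 5 arrays were kept (17684), and the brightest stood for a gene. Of 24460 probes 20236 had 1 symbol, by the platform annotation updated with a gene table of assembly GRCh38.p14.

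Single arrays were compared by difference, called at 1, with no test. The test against the other native arrays used lmFit and eBayes with an intensity trend, two-sided, with 2 residual degrees of freedom. It was tried on simulated data in which the miR-17 array alone was changed. The simulation thus leaves out the spread that the other miRNAs add and does not show the power of the test here. No label says that arrays are separate cultures of 1 treatment, so the p-values reflect the spread among these arrays only. The other native arrays carry different miRNAs. In the test against them the spread thus mixes differences between miRNAs with technical ones, which cannot be told apart, and it is not a spread of replicates. Members and lists were chosen with earlier results of these data known. Named genes were the 15 largest differences in each direction, the 8 largest by moderated t where fewer than 5 passed, target list members past 0.5 with fixed members, and 3 at each end of every other list. Alternatives covered normalization, background correction, the filter, the probe for a gene, the fold and the arrays in the fit.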

Additional observations from a re-analysis of the deposited data

How the results depend on the processing

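The counts past the fold moved with 4 settings. At 0.5 in place of 1 there were 445 lower and 267 higher features, against 87 and 18, with the values of the authors' deposited table they were 138 and 198, with an offset of 16 134 and 30, and with subtraction of the blank mean 249 and 66. The median of all features in that table was 0.26, and relative to it the counts were 261 and 58. With quantile normalization over the 5 native and control arrays alone they were 85 and 18. Against the other native arrays the model over 6 arrays, without those labelled as methylated let7a and miR-17, gave 613 lower and 428 higher features, against 0 and 0. With no filter on dim probes 4 were higher. Leaving out 1 native array gave 0 to 14 lower and 0 to 5 higher, where 14 and 5 came without miR-200c native, and the cause was not tested. Of list medians, subtraction of the blank mean gave -0.40 for all targets, -0.21 for the TGF-beta and BMP targets and -0.51 for the lipid, autophagy and trafficking targets. The authors' deposited table gave 0.52 for S phase, 0.47 for mitosis and -0.045 for the cell cycle targets, and no filter gave -0.10 for the survival and PI3K targets. All 15 lowest named genes stayed past the fold in 10 of 10 settings except MXRA7 (9 of 10), and CDKN1A ranged over -2.03 to -1.84. Of the 15 highest, TPD52L2 stayed past it in 8 and HOXA9, HMGN1 and COL9A3 in 9 of 10 settings. No paired analysis was possible because each group has 1 array, and the model over 8 arrays with the form as a block gave 0 and 0. The number of arrays limits the precision, and signal near the blank spots limits dim genes.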
